A study of Homo sapiens with 16 samples.

Results

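Of 16 established human T-ALL lines (T-ALL is the acute leukemia that arises from developing T cells), 9 had high and 7 had background levels of CD1E, and all other genes were compared between these sides. The sides were chosen by a measured value, the intensity of the CD1E probe set with the highest mean. The 9 lines above an intensity of 200 (ALL-SIL, CCRF-CEM, JURKAT, KOPT-K1, MOLT-4, P12-ICHIKAWA, PF-382, SKW-3 and TALL-1) are called CD1E-high. The 7 lines below 42 (DU528, HSB-2, LOUCY, MOLT-16, PEER, SUP-T11 and SUP-T13) are called CD1E-low. All 16 lines of the study fell on 1 of the sides. The division rests on these arrays and not on a label, so the levels of CD1E are given without a test.

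Each line was grown untreated in serum-supplemented medium, and its total RNA was taken after 24 hours and measured on 1 Affymetrix U133 Plus 2.0 array. The lines shared a diagnosis and a culture protocol, and no normal thymocyte or T-cell sample was analysed here. Each value comes from 1 culture of 1 line, which is an established leukemia and not a stage of the thymus. With no line measured more than once, every SD, standard error (SE) and p-value describes the spread between different lines. In bulk RNA of this kind, fewer cells expressing a gene and less of its RNA per cell cannot be told apart.

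CD1 proteins resemble HLA class I molecules but present lipids rather than peptides to T cells. CD1A, CD1B and CD1C reach the cell surface, CD1E stays inside the cell where it assists lipid loading, and CD1D presents lipids to natural killer T cells. In the thymus the CD1 genes are expressed by cortical thymocytes, the stage at which CD4 and CD8 are carried together and the receptor chains are rearranged by RAG1 and RAG2. Expression of CD1A is the usual mark of the cortical subtype of T-ALL.

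The CD1 genes lie in a cluster on chromosome 1, and the 250 bases before a listed start of CD1E, CD1D, CD1A and CD1C are shown because these genes were high in largely the same lines. The sequences are from RefSeq (GRCh38.p14), written 5′ to 3′. Capitals mark the E-box CANNTG, the motif bound by E proteins such as TCF3 and TCF12, which reads the same on both strands.

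CD1E, chr1:158353644-158353893, plus strand: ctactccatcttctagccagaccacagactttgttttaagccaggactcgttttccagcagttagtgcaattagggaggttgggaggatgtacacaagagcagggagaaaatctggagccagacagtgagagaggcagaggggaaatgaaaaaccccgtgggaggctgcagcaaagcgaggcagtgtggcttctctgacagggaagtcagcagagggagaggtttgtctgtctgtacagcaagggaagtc

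CD1D, chr1:158179697-158179946, plus strand: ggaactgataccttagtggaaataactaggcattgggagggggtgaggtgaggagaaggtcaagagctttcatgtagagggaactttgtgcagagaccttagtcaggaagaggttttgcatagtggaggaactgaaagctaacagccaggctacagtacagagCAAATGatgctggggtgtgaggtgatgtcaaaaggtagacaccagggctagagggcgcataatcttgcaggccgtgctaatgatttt

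CD1A, chr1:158248086-158248335, plus strand: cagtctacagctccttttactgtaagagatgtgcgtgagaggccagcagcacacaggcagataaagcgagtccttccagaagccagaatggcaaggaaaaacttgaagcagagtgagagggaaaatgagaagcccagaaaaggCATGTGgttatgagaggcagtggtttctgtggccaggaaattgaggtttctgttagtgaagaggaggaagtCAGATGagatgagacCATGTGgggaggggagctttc

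CD1C, chr1:158289673-158289922, plus strand: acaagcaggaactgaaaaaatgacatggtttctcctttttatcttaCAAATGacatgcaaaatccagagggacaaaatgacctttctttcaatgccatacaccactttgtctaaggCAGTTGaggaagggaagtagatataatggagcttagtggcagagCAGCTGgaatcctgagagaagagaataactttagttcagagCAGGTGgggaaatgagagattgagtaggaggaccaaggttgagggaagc

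The CD1E window held 0 matches, the CD1D window 1, the CD1A window 3 and the CD1C window 4. Of 35116 windows of 250 bases before listed starts, 61.8% held at least 1 match, 10.4% held at least 3 and 3.35% held at least 4. A second listed start of CD1A had 1 match before it, and a second start of CD1D had 0. A match is a description of the letters and not a bound site. CD1B is named only.

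CD1E itself ranged from 226 in TALL-1 through a median of 4718 in JURKAT to 8796 in MOLT-4 among the CD1E-high lines. Among the CD1E-low lines its intensity ran from 3.59 in MOLT-16 through a median of 6.14 in SUP-T11 to 22.9 in SUP-T13. Just inside the limit of 200 stood TALL-1, followed by ALL-SIL at 872, and just below the limit of 42 stood SUP-T13, followed by DU528 at 6.54. No line lay between the limits. The second CD1E probe set ran from 103 to 4493 in the CD1E-high lines and from 7.21 to 28.8 in the CD1E-low lines, with the same 9 lines above the other 7.

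CD1B, named as a marker together with CD1E and so also described without a test, ranged from 390.3 in TALL-1 to 9328 in P12-ICHIKAWA, with a median of 3455 in SKW-3. In the CD1E-low lines its median was 5.20 and its highest value was 224 in SUP-T13, the line with the highest CD1E on that side. The next line, HSB-2, had 15.1. The sides therefore did not overlap for CD1B, and TALL-1 and SUP-T13 were the lines nearest to each other across them.

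**Figure D1:**
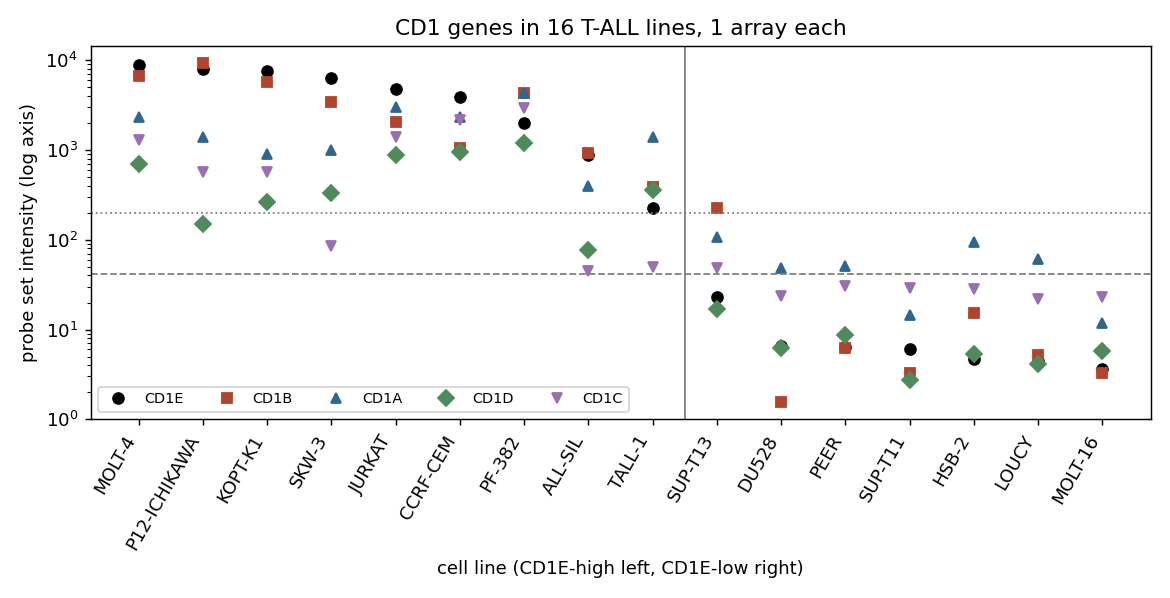
Intensity (log axis) of the 5 CD1 genes in each of the 16 lines, 1 point per gene and line, with the CD1E-high lines on the left and lines ordered by CD1E within a side. The dotted and dashed lines mark the limits of 200 and 42. CD1A and CD1D were higher in each of the 9 CD1E-high lines than in any CD1E-low line, and CD1C was at 44.8 to 84.8 in ALL-SIL, TALL-1 and SKW-3.

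Before the other genes are given, the array controls and the housekeeping genes are described. The ACTB 3'/5' probe set ratio, a measure of RNA integrity and of the length of labelled product, ran from 1.59 to 2.03 in the CD1E-high lines, with a median of 1.74. On the CD1E-low side it ran from 1.44 to 1.90, with a median of 1.50. The mean log2 ratio differed by 0.19 (two-sided exact permutation test over 11440 assignments, p = 0.0136, 0.0409 after Benjamini-Hochberg adjustment over 3 measures). MOLT-16 stood apart from the other CD1E-low lines, at 1.90 against at most 1.59 in the other 6. It also had the lowest array median of all lines, 37.6, and ALL-SIL the next, 38.1, while the rest ran up to 45.0. The sides differed by -0.01 in the log2 GAPDH ratio (exact permutation p = 0.794) and by -0.02 in the log2 array median (exact permutation p = 0.502, adjusted 0.754). Among 8 tested housekeeping genes, 0 had a limma adjusted p under 0.05. At an unadjusted limma p under 0.05, 3 were lower in the CD1E-high lines and 0 higher, beside 8.94% and 5.8% of all genes tested. These 3 were ACTB (log2 difference -0.18), GUSB (-0.43) and SDHA (-0.22), and the median over the 8 was -0.02.

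Among 13327 genes tested, 20 were higher and 35 were lower in the CD1E-high lines at an adjusted p under 0.05 (limma with Benjamini-Hochberg adjustment). These are 0.15% and 0.263% of the genes tested. At an unadjusted p under 0.05, 773 genes (5.8%) were higher and 1191 (8.94%) were lower, and the median difference over all tested genes was -0.02 on the log2(intensity + 16) scale. All differences below are CD1E-high minus CD1E-low on that scale, which understates the change of genes near background, and "passed" means an adjusted p under 0.05 in this limma fit.

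The counts depended on single lines. Without DU528 the fit gave 4 higher and 2 lower genes, without HSB-2 4 and 3, without KOPT-K1 3 and 14, without LOUCY 8 and 10, and without P12-ICHIKAWA 5 and 7. Leaving out MOLT-4 or PF-382 gave 3 and 2 in each case, and leaving out TALL-1 gave 13 and 26. The counts grew to 48 and 112 without MOLT-16, to 40 and 63 without PEER, and to 36 and 72 without SUP-T11. All 55 genes kept their direction in each of the 16 fits that left out 1 line, and 5 of them passed in each fit, namely CD1A, CD1D, SH3TC1, MYO1F and HOXB2. The 55 were picked from these same lines, so a kept direction was nearly fixed in advance and is no support for them.

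With the log2 ACTB ratio as a covariate, 4 genes were higher and 2 were lower, and 5 of these 6 were among the 55: CD1A, CD1D, CCNE2, TMEM184B and FAM50A. All 55 kept their direction in that fit, each with an unadjusted limma p under 0.05, which is a description because they were picked from the same lines. Their differences with the covariate were a median of 0.909 times those without it, and ranged from 0.576 to 1.41 times. The part of RNA integrity in the differences was not tested otherwise.

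**Figure D2:**
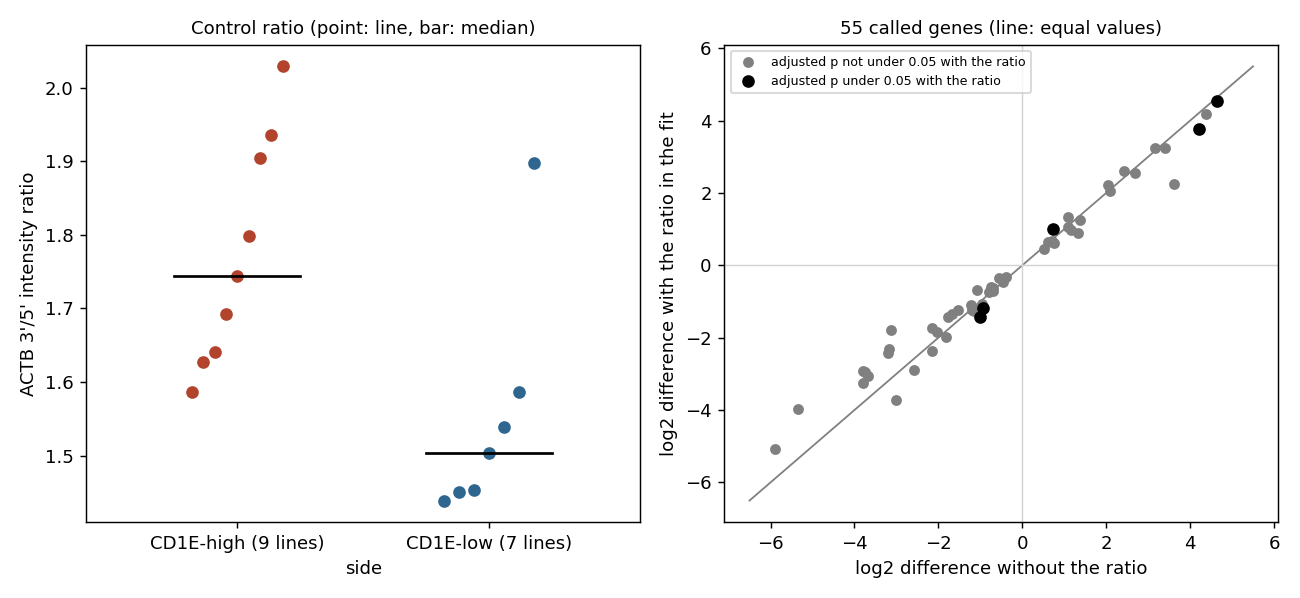
Left, the ACTB 3'/5' intensity ratio of each line (points) with the median of each side (bars), 1.74 in 9 CD1E-high and 1.50 in 7 CD1E-low lines. Right, the log2 difference between sides of the 55 genes that passed, without (horizontal axis) and with (vertical axis) the log2 ratio in the fit, where black points are the 5 genes that also passed with it and the diagonal marks equal values.

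By limma p-value, CD1A and CD1D led the higher group. CD1A, the lipid-presenting molecule used to define cortical T-ALL, ranged from 394 in ALL-SIL through a median of 1407 in TALL-1 to 4276 in PF-382. Its values in the CD1E-low lines were 11.9 in MOLT-16, a median of 51.2 in PEER and at most 107 in SUP-T13. The sides did not overlap, and the difference was 4.63 ± 0.46 (SE; limma adjusted p = 0.000308). TALL-1, the CD1E-high line with the least CD1E, had the median level of CD1A.

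CD1D, the molecule recognised by natural killer T cells, ranged from 77.1 in ALL-SIL through 358 in TALL-1 to 1203 in PF-382. In the CD1E-low lines it ranged from 2.77 in SUP-T11 through 5.74 in MOLT-16 to 17.0 in SUP-T13. These sides did not overlap either, with a difference of 4.21 ± 0.46 (SE; limma adjusted p = 0.000709). CD1D lay below the table median of 42.4 in every CD1E-low line, so it entered the test only through its CD1E-high values. Its p-value and its gap describe that pattern and are not separate support. CD1A and CD1D were the 2 genes (0.015% of those tested) whose lowest CD1E-high value lay at least 1 log2 unit above the highest CD1E-low value, by 1.74 and 1.50. In the opposite direction 0 genes (0.0%) had such a gap. Without CCRF-CEM or PEER there were 4 genes with such a gap in either direction, and without MOLT-16 there were 5. At any gap above 0, the sides did not overlap for 13 higher and 15 lower genes of the 13327 tested.

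CD1C did not pass. It ranged from 44.8 in ALL-SIL through 573 in KOPT-K1 to 2933 in PF-382, and from 22.0 to 48.2 in the CD1E-low lines, where SUP-T13 was again the highest. ALL-SIL lay inside the range of the CD1E-low lines, TALL-1 just above it at 49.3, and SKW-3 at 84.8. The difference was 3.46 ± 0.79 (SE; limma adjusted p = 0.0646). All 3 tested CD1 genes had a positive difference, and their median difference was 4.21. Of the 3, 2 passed, beside 0.15% of all genes tested in the higher direction. Among the CD1E-low lines, CD1C exceeded the table median of 42.4 in SUP-T13 alone. CD1C, like CD1D, therefore entered the test only through its CD1E-high values, and the count of CD1 genes that passed is a description.

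Genes of cortical thymocytes outside the CD1 family were described next. Of 14 listed genes 13 were tested, and all 13 differences were positive, with a median of 2.09. Of these, 1 passed and 10 had an unadjusted p under 0.05 in the higher direction, beside 5.8% of all genes tested. The list was chosen with earlier results of these data known, so its direction is a description.

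CD8B, the beta chain of the CD8 coreceptor, was the cortical gene that passed. Its lowest CD1E-high values were 59.0 in ALL-SIL and 72.1 in TALL-1, the median was 201 in SKW-3 and the highest value 323 in PF-382. In 5 CD1E-low lines it lay between 13.2 and 16.3, whereas PEER had 97.7 and SUP-T13 107. The ranges thus overlapped through ALL-SIL and TALL-1 on one side and PEER and SUP-T13 on the other, and the difference was 2.09 ± 0.41 (SE; limma adjusted p = 0.0355). CD8A, the alpha chain, did not pass (difference 2.64 ± 1.02, limma adjusted p = 0.242), with 23.1 in JURKAT and 69.5 in P12-ICHIKAWA against 1306 in SUP-T13.

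RAG1, a subunit of the recombinase that rearranges the receptor genes, had a difference of 3.84 ± 1.05 and did not pass (limma adjusted p = 0.113). Its intensity was between 130 in JURKAT and 3415 in CCRF-CEM in 8 CD1E-high lines, but 8.84 in TALL-1. In the CD1E-low lines it was between 6.96 and 27.3 in 6 lines and 881 in MOLT-16. RAG2, its partner, was 2.64 in TALL-1 and 392 in MOLT-16, and it was also 71.4 in LOUCY, above ALL-SIL at 48.8 and KOPT-K1 at 51.4. TALL-1 therefore carried CD1 transcripts with RAG1 and RAG2 below the table median of 42.4, and MOLT-16 carried RAG1 and RAG2 with the lowest CD1E and CD1A of all 16 lines.

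PTCRA, which encodes the invariant chain of the pre-T-cell receptor, ranged from 31.7 to 1952 in the CD1E-high lines and from 27.7 to 60.4 in the CD1E-low lines (difference 2.37 ± 0.77, limma adjusted p = 0.173). TALL-1 held its highest value, while ALL-SIL, SKW-3 and JURKAT, at 31.7, 36.5 and 49.3, lay inside the CD1E-low range. DNTT, the polymerase that adds untemplated bases at receptor joints, was highest in a CD1E-low line, PEER, at 13597, and was 69.0 and 84.3 in KOPT-K1 and SKW-3. CD4 lay between 35.5 and 244 in the CD1E-high lines and between 23.8 and 71.7 in the CD1E-low lines (difference 0.70 ± 0.28, limma adjusted p = 0.264).

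THEMIS, needed for thymocyte selection, and ARPP21, a transcript of double-positive thymocytes, each missed the threshold. THEMIS was between 910 and 2325 in the CD1E-high lines, against 12.9 in LOUCY, a median of 87.4 in MOLT-16 and 2378 in SUP-T13 (difference 3.09 ± 0.71, limma adjusted p = 0.0652). ARPP21 was between 461 and 2764 in 8 CD1E-high lines and 77.3 in ALL-SIL. It was at most 8.89 in DU528, HSB-2, LOUCY and SUP-T11, but 289 in MOLT-16, 304 in PEER and 526 in SUP-T13 (difference 3.75 ± 0.88, limma adjusted p = 0.0658). CCR9, the receptor for the thymic chemokine CCL25, ranged from 13.3 in JURKAT to 3452 in PF-382 and reached 147 in PEER among the CD1E-low lines (difference 2.82 ± 0.90, limma adjusted p = 0.168).

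By these markers, several CD1E-high lines were low in at least 1 cortical gene, among them TALL-1, ALL-SIL, JURKAT, SKW-3, KOPT-K1 and P12-ICHIKAWA, and MOLT-16, PEER and SUP-T13 each held some of them. The sides were named by CD1E alone from the start, and these values give neither side the name of a stage. SUP-T13 had the most CD1E, CD1B, CD1A, CD1C and CD1D of the CD1E-low lines, together with the highest CD8A, THEMIS and ARPP21 of that side.

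**Figure D3:**
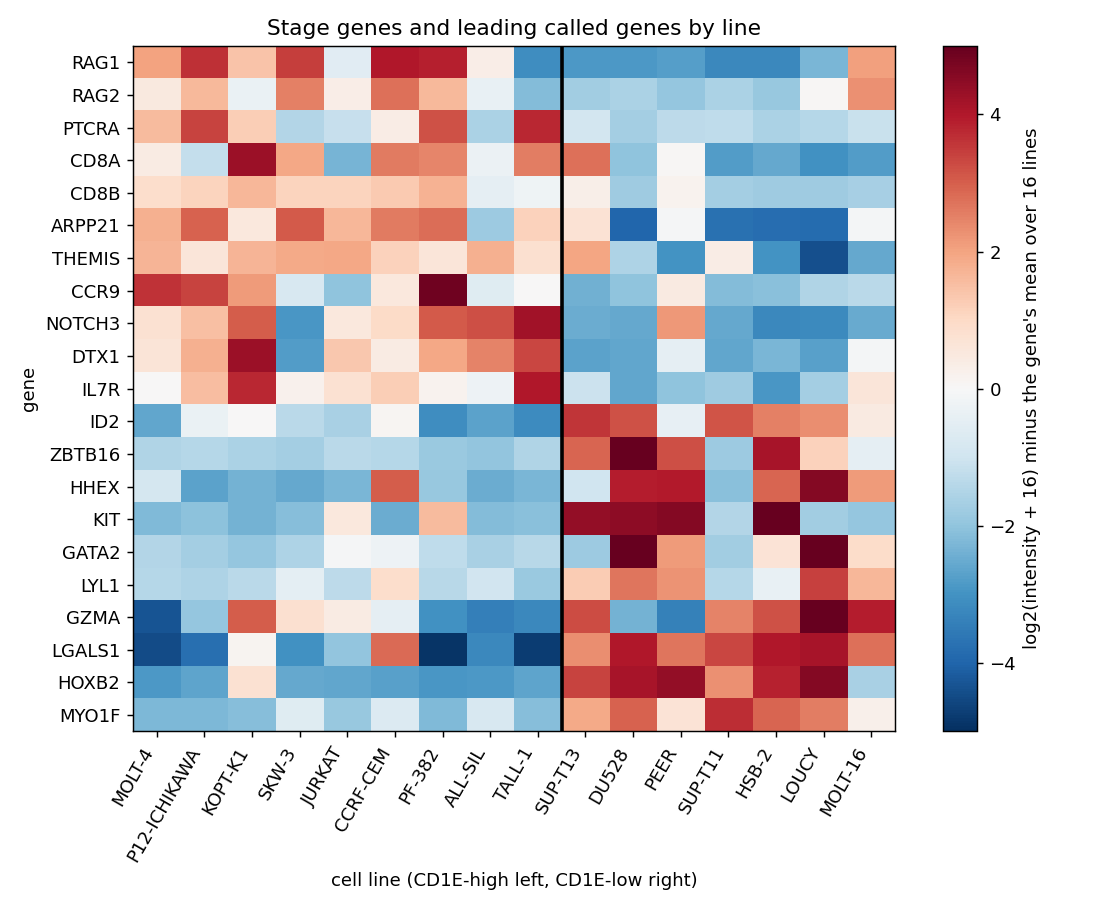
Levels of 21 genes (vertical axis) in each line (horizontal axis), as log2(intensity + 16) minus the gene's mean over the 16 lines, with red above and blue below that mean. The first 9 columns are the CD1E-high lines. TALL-1 was low in RAG1 and RAG2, MOLT-16 was high in both, and SUP-T13 was high in CD8A and THEMIS.

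NOTCH signalling drives early T-cell commitment and is the pathway most often mutated in T-ALL. Of 15 tested receptors and targets, 0 passed, and 6 had an unadjusted p under 0.05 in the higher and 1 in the lower direction, beside 5.8% and 8.94% of all genes tested. The median difference of the list was 1.49. NOTCH3, a receptor that is also a NOTCH target, ranged from 13.4 in SKW-3 through 609 in P12-ICHIKAWA to 3955 in TALL-1 (difference 3.65 ± 0.96, limma adjusted p = 0.105). In the CD1E-low lines it was between 7.30 and 23.7 in 6 lines and 955 in PEER. DTX1, a direct NOTCH target, was between 297 and 4490 in 8 CD1E-high lines but 18.2 in SKW-3, below all 7 CD1E-low lines, which ranged from 20.1 to 204 (difference 3.41 ± 0.81, limma adjusted p = 0.0724).

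IL7R, the receptor chain for interleukin 7 and a NOTCH target, ranged from 186 in ALL-SIL through 391 in JURKAT to 3879 in TALL-1. Its CD1E-low values ran from 15.9 in HSB-2 through 55.2 in SUP-T11 to 350.3 in MOLT-16 (difference 2.91 ± 0.68, limma adjusted p = 0.0658). TRIB2, a pseudokinase also described as a NOTCH target, went the other way, between 313 and 1051 in the CD1E-high and between 645 and 6040 in the CD1E-low lines (difference -1.96 ± 0.44, limma adjusted p = 0.0608). PTCRA and IL7R also belong to other lists described here.

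Among T-lineage transcription factors, 1 of 20 tested genes passed, beside 0.15% higher and 0.263% lower of all genes tested. At an unadjusted limma p under 0.05, 2 were higher and 3 were lower, beside 5.8% and 8.94% of all genes. Of the differences 12 were positive and 8 negative, and the median was 0.18. ID2, which sequesters E proteins and is needed by innate lymphoid cells, ranged from 82.1 in TALL-1 through 265 in JURKAT to 910 in CCRF-CEM. On the CD1E-low side it ranged from 626 in PEER through 4957 in HSB-2 to 10156 in SUP-T13. ID2 was lower in the CD1E-high lines by -3.74 ± 0.67 (SE; limma adjusted p = 0.0306), with CCRF-CEM, KOPT-K1 and P12-ICHIKAWA overlapping PEER. ZBTB16, the factor PLZF of innate-like T cells, did not pass (difference -3.63 ± 0.79, limma adjusted p = 0.0567). It was between 19.4 and 37.7 in the CD1E-high lines, and it was 22.9 in SUP-T11 but between 83.5 and 4799 in the other 6 CD1E-low lines. BCL11B, required for T-cell commitment, was between 4341 and 6832 against 300.2 to 5752 (difference 1.49 ± 0.48, limma adjusted p = 0.168). TCF12, an E protein, was between 2010 and 5084 against 1205 to 3858 (difference 0.68 ± 0.25, limma adjusted p = 0.225).

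Genes of haematopoietic progenitors were tested because they are expressed before the cortical stage. Of 15 tested genes 0 passed, 13 differences were negative with a median over the list of -2.12, and 6 had an unadjusted p under 0.05 in the lower direction, beside 8.94% of all genes. KIT, a receptor tyrosine kinase of blood progenitors, was between 2219 and 3613 in DU528, HSB-2, PEER and SUP-T13 but between 11.99 and 22.8 in the other 3 CD1E-low lines. Among the CD1E-high lines it was 304 in PF-382, 141 in JURKAT and at most 9.92 in the other 7 (difference -3.40 ± 1.18, limma adjusted p = 0.198). HHEX, a homeobox factor of early progenitors, was between 600 and 3370 in 5 CD1E-low lines and 17.2 and 54.8 in SUP-T11 and SUP-T13, against 1132 in CCRF-CEM and at most 61.3 in the other CD1E-high lines (difference -3.66 ± 1.04, limma adjusted p = 0.126).

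LYL1, a basic helix-loop-helix factor of early T-ALL, was between 79.9 and 233 in 8 CD1E-high lines and 622 in CCRF-CEM. Its CD1E-low values ranged from 112 in SUP-T11 to 3655 in LOUCY (difference -2.40 ± 0.61, limma adjusted p = 0.0954). GATA2, a progenitor factor, was 3050 in DU528 and 3946 in LOUCY and at most 325 in the other 14 lines (difference -2.85 ± 0.97, limma adjusted p = 0.188). The progenitor genes were thus not high in the same CD1E-low lines, and SUP-T11 was low in KIT, HHEX, LYL1 and GATA2. Of 9 tested oncogenic transcription factors of T-ALL, 0 passed, and 2 had an unadjusted p under 0.05 in the lower direction, LYL1 and MEF2C, beside 8.94% of all genes tested.

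The largest differences among the 35 lower genes lay outside the CD1 and stage lists, apart from ID2. LGALS1, which encodes the glycan-binding protein galectin-1, ranged from 3946 in SUP-T13 through 7990.0 in SUP-T11 to 13809 in LOUCY on the CD1E-low side. On the CD1E-high side it was 10.3 in PF-382, a median of 68.3 in ALL-SIL and 5660 in CCRF-CEM, with KOPT-K1 next at 849. CCRF-CEM was the CD1E-high line inside the CD1E-low range, and the difference was -5.89 ± 0.95 (SE; limma adjusted p = 0.0218).

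HOXB2, a homeobox gene expressed in early blood progenitors, was between 6.52 and 12.8 in 8 CD1E-high lines and 268 in KOPT-K1. It was between 800 and 4091 in 6 CD1E-low lines and 39.0 in MOLT-16 (difference -5.34 ± 0.80, limma adjusted p = 0.0145). HOXB-AS1, a transcript antisense to the HOXB cluster, showed the same 2 exceptions, with 113 in KOPT-K1 and 16.8 in MOLT-16 (difference -3.17 ± 0.55, limma adjusted p = 0.0306).

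MYO1F, a myosin of blood cells involved in adhesion and movement, ranged from 31.5 in MOLT-4 through 36.2 in TALL-1 to 134 in SKW-3. Its CD1E-low values ran from 254 in MOLT-16 through 1298 in LOUCY to 2920 in SUP-T11, so the sides did not overlap (difference -3.79 ± 0.48, limma adjusted p = 0.00288). PREX1, an activator of the GTPase RAC, ranged from 3.94 to 169 against 86.6 to 3360, overlapping through KOPT-K1 and MOLT-16 (difference -3.79 ± 0.67, limma adjusted p = 0.0306). TNFSF14, the cytokine LIGHT, was between 3.53 and 30.7 against 34.3 to 862, without overlap (difference -3.20 ± 0.52, limma adjusted p = 0.0218). TSC22D3, a glucocorticoid-induced regulator, was between 5.98 and 75.4 against 73.3 in SUP-T13 to 8002 in LOUCY (difference -3.67 ± 0.68, limma adjusted p = 0.0323).

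Other lower genes with differences from -3.12 to -1.53 were HSH2D, an SH2 adaptor of blood cells, STX3, a SNARE of membrane fusion, SLC43A1, an amino acid transporter, ABCA2, a lipid transporter, P3H4, TM6SF1, TFR2, the second transferrin receptor, YPEL3, NAGLU, a lysosomal enzyme, and CBLB, a ubiquitin ligase that restrains T-cell activation. HSH2D was between 9.93 and 68.2 in the CD1E-high lines and between 350.3 and 1621 in DU528, HSB-2, LOUCY, PEER and SUP-T13, but 22.9 in MOLT-16 and 64.4 in SUP-T11. CBLB was between 133 and 302 against 261 in MOLT-16 to 1752 in SUP-T11.

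The remaining 17 lower genes differed by -1.22 to -0.39. Without overlap between sides were SERTAD1, EEIG2, COQ2, an enzyme of coenzyme Q synthesis, FAM50A, SERTAD3 and SLC10A3. SERTAD1 was between 68.3 and 109 in the CD1E-high lines and between 142 and 409 in the CD1E-low lines, the widest separation of these. The others were CHGA, YPEL5, DNASE1L1, TMEM184B, AP1G2, CAPNS1, the small calpain subunit, LRPAP1, MINK1, RPN1, a subunit of the oligosaccharyltransferase, and 2 genes of actin branching, ARPC2 of the ARP2/3 complex and BRK1 of the WAVE complex. BRK1 had the smallest difference, -0.39, with values of 3083 to 4241 against 3894 to 5024.

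**Figure D4:**
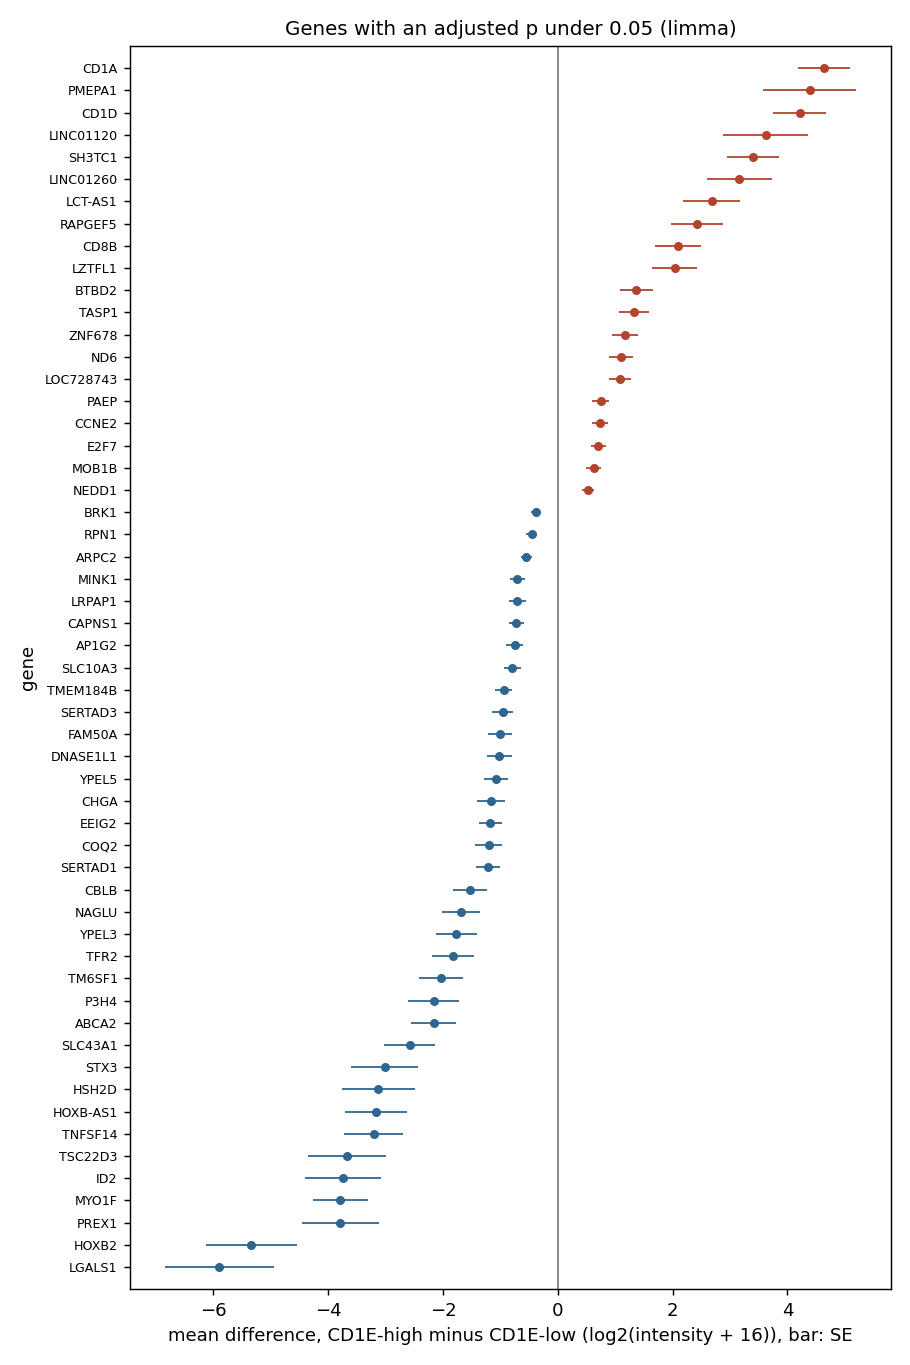
Difference in mean log2(intensity + 16), CD1E-high minus CD1E-low (horizontal axis, bars are SE), for the 20 higher (red) and 35 lower (blue) genes that passed. CD1A (4.63) and LGALS1 (-5.89) lie at the ends.

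Outside the CD1 genes and CD8B, the higher group held 17 genes. SH3TC1 had the smallest p among them, with values from 486 in MOLT-4 through 1337 in ALL-SIL to 2186 in TALL-1. Its CD1E-low values ran from 26.6 in SUP-T11 through 81.4 in SUP-T13 to 501 in MOLT-16 (difference 3.39 ± 0.45, limma adjusted p = 0.00468). MOLT-4 and MOLT-16 formed the overlap.

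PMEPA1, a transmembrane protein that restrains TGF-beta signalling, was between 581 and 2684 in 8 CD1E-high lines but 8.32 in CCRF-CEM. It was between 6.86 and 132 in the CD1E-low lines (difference 4.38 ± 0.81, limma adjusted p = 0.0323). RAPGEF5, an exchange factor for RAP GTPases, was between 155 and 558 against 10.6 to 36.6 in 6 CD1E-low lines and 332 in LOUCY (difference 2.43 ± 0.45, limma adjusted p = 0.0324). LZTFL1, a regulator of ciliary trafficking, was between 1531 and 3113 against 184 to 820 in 6 CD1E-low lines and 2702 in PEER (difference 2.04 ± 0.40, limma adjusted p = 0.0355).

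There were 3 non-coding transcripts among the higher genes with differences above 2. LINC01120 ranged from 55.1 in SKW-3 to 4293 in MOLT-4 against 3.43 to 104 (difference 3.62), with PEER the highest CD1E-low line. LINC01260 was between 369 and 1950 against 10.3 to 448 (difference 3.16), and LCT-AS1 between 247 and 1783 against 20.7 to 285 (difference 2.68). Their limma adjusted p-values were 0.0464, 0.0306 and 0.0323.

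Smaller differences were those of CCNE2, E2F7, NEDD1 and MOB1B. CCNE2, cyclin E2, was between 2191 and 3843 in the CD1E-high and between 1393 and 2382 in the CD1E-low lines (difference 0.74 ± 0.14, limma adjusted p = 0.0355). E2F7, a repressor of E2F target genes, was between 1323 and 2373 against 1024 to 1614 (difference 0.71 ± 0.13, limma adjusted p = 0.032). NEDD1, which recruits gamma-tubulin to the spindle, was between 2240 and 2725 against 1308 to 2185 (difference 0.53), and MOB1B, of the Hippo pathway, between 1780 and 2695 against 993 to 1688 (difference 0.62). NEDD1 and MOB1B did not overlap between sides. Of 16 listed proliferation genes 0 passed, and 4 had an unadjusted p under 0.05, all 4 in the higher direction, beside 5.8% of all genes tested. Of their differences 15 were positive, and the median was 0.14. RRM2, a subunit of ribonucleotide reductase, had the largest, 0.62 ± 0.14 (limma adjusted p = 0.0642).

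The other higher genes were BTBD2, TASP1, the protease that cleaves the MLL protein, ZNF678, ND6, a mitochondrial subunit of respiratory complex I, LOC728743 and PAEP, with differences from 0.75 to 1.37. PAEP was between 29.0 and 50.0 against 5.22 to 26.4, around the table median of 42.4, so its levels were near background. PAEP entered the test only through its CD1E-high values. The CD1E-low lines alone would also not have met the filter for CD1D, CD8B, PMEPA1, RAPGEF5 and LINC01120. In turn, the CD1E-high lines alone would not have met it for CHGA, HOXB2, HOXB-AS1, HSH2D, SLC43A1, STX3, TFR2 and TNFSF14. The p-values of all these genes follow a filter that 1 side met without the other, and are not separate support.

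Of the 55 genes that passed, 27 had another probe set of their own, and for 23 of these all other probe sets had the same sign of difference. RAPGEF5, TFR2, AP1G2 and LRPAP1 were the exceptions. For LRPAP1 the sign of the gene's difference changed with the choice of probe set.

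Some genes separated the sides without passing. ADA, adenosine deaminase, was between 7758 and 12502 in the CD1E-high lines and reached at most 6974 in the CD1E-low lines, where 1 line was at 4.91 (difference 2.40 ± 0.91, limma adjusted p = 0.236). EZH2, the histone H3 lysine methyltransferase of the Polycomb complex, was between 2684 and 3768 against at most 2413, with a lowest value of 12.2 (difference 1.48 ± 0.73, limma adjusted p = 0.365). MAP3K1 was at most 605 in the CD1E-high and at least 658 in the CD1E-low lines (difference -1.83 ± 0.48, limma adjusted p = 0.103). NAF1, a factor of ribonucleoprotein assembly, was between 683 and 1113 against 292 to 606 (difference 0.70 ± 0.15, limma adjusted p = 0.0598).

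Genes that load lipids onto CD1 or chaperone it were listed as its partners. Of 15 tested 0 passed, and 1 had an unadjusted p under 0.05 in the higher and 3 in the lower direction, beside 5.8% and 8.94% of all genes tested. Of the differences 5 were positive and 10 negative, and the median was -0.13. PSAP, the precursor of the lipid-transfer saposins, was between 3631 and 8660 against 1871 to 4489 (difference 0.72 ± 0.20, limma adjusted p = 0.114). CTSS, a lysosomal protease, was between 10.0 and 501 against 150 to 918 (difference -2.07 ± 0.69, limma adjusted p = 0.181).

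Cytotoxic and natural killer cell genes are background markers of another lymphoid programme. Of 12 tested 0 passed, 11 differences were negative with a median of -1.37, and 5 had an unadjusted p under 0.05 in the lower direction, beside 8.94% of all genes tested. Their summed intensity ran from 289 to 5734 in the CD1E-high lines and from 873 to 21136 in the CD1E-low lines. GZMA, granzyme A, was at least 2678 in 5 CD1E-low lines and highest in LOUCY at 15841, but it was also 3966 in KOPT-K1 (difference -3.08 ± 1.33, limma adjusted p = 0.296). KLRB1, the receptor CD161, was 7249 in DU528, 3357 in SUP-T13 and 282 in HSB-2 and at most 20.7 in the other 13 lines.

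Markers of other cell types were checked in the same way. Of 3 tested myeloid markers 0 passed and 1 had an unadjusted p under 0.05 (LYZ, lower), with summed intensities of 83.6 to 164 in the CD1E-high and 108 to 815 in the CD1E-low lines, and CD14, MPO and ELANE were below the table median in every line. Of 6 tested B-cell markers 0 passed and 1 had an unadjusted p under 0.05 (CD79A, higher), with sums of 327 to 6164 and 320.1 to 23528. Of the B-cell differences 2 were positive and 4 negative, and the largest was that of IGLL1 (-2.57, limma adjusted p = 0.396). LOUCY had 11974 for IGLL1 and 8886 for VPREB1. Of 6 tested dendritic-cell and Langerhans-cell markers 0 passed and 1 had an unadjusted p under 0.05 (IRF8, higher), with sums of 663 to 2218 and 721 to 2889, and CD207, CLEC4C and HLA-DRA were below the table median in every line. Of the differences in this list 2 were positive and 4 negative, with a median of -0.14. IRF8, a factor of that list, was between 38.8 and 769 against 36.7 to 104 (difference 1.91 ± 0.48, limma adjusted p = 0.0897). Of 4 erythroid and megakaryocytic and 7 stromal and epithelial markers tested 0 passed, and 0 had an unadjusted p under 0.05. Over all genes tested, the shares at that unadjusted threshold were 5.8% higher and 8.94% lower. The part of these markers in the differences between sides was not tested.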

How the data were processed

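Total RNA of 16 lines was taken with Trizol and a column, per the labels' protocols, and hybridised to 1 array each. The authors deposited probe set intensities on a linear scale, from 0.6 to 24485, and how these were computed and scaled is not given in the sources used here. No normalization was added, and 0 columns were left out. The annotation named 1 gene for 41091 of 54675 probe sets, several for 1801 and none for 11721, and 62 were control probe sets. By Entrez ID 41037 matched RefSeq, which updated 0 symbols. For each of 19775 genes the probe set of highest mean was used. Genes whose 3rd highest value exceeded the table median of 42.4 were tested, without CD1E and CD1B, as log2(intensity + 16) with limma 3.58.1 (trend and robust, R 4.3.3) and Benjamini-Hochberg adjustment. The script was tested on simulated data, drawn from normal distributions independently for each gene and line. That setting is simpler than these lines, so the test concerns the code and not the results. Single values had an exact permutation test over lines. Python 3.11.15, numpy 2.4.6, pandas 2.3.3 and matplotlib 3.10.9 served for the rest. The number of arrays limits the precision.

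The sides, their limits and the 22 lists (272 genes, 218 tested) were chosen with earlier results of these data known, so no list was tested as a set. The text names the 12 genes with the smallest p and the 6 widest non-overlapping genes in each direction, list members that passed, and at most 4 further members of a list by size of difference. The other genes that passed, and further cortical genes outside the CD1 family, are named in addition, chosen after their values were seen. The alternatives were other pseudocounts, filters, normalizations, probe set rules, the ACTB ratio as a covariate, a fit without trend and robust settings, the CD1E level as a continuous predictor, and leaving out each line in turn.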

Additional observations from a re-analysis of the deposited data

Results flagged for a closer look

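The values here lay far from the other lines of the same side, by the gap to the nearest line as a share of the side's range. Of 120 sides checked 19 met this rule. The checks covered the genes that passed, CD1E, CD1B and the array measures. A chance rate of about 1 in 20 holds only for independent values from a normal distribution. CD1E set the sides, the genes that passed were picked from the same data, and HOXB2 and HOXB-AS1 were flagged in the same lines. The count therefore cannot be read as an excess over chance.

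SUP-T13 stood above the other CD1E-low lines in CD1E (22.9, next 6.54 in DU528) and in CD1B (224, next 15.1 in HSB-2). MOLT-16 stood apart from the CD1E-low lines with an ACTB ratio of 1.90 (next 1.59), an array median of 37.6 (next 42.2), and intensities of 39.0 for HOXB2 (next 800), 16.8 for HOXB-AS1 (next 226), 2254 for FAM50A (next 1629) and 618 for YPEL5 (next 927). ALL-SIL had an array median of 38.1, with the next CD1E-high line at 41.9.

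KOPT-K1 had 268 for HOXB2 and 113 for HOXB-AS1, where the next CD1E-high values were 12.8 and 20.7. CCRF-CEM had 8.32 for PMEPA1 (next 581) and 30.7 for TNFSF14 (next 11.02). JURKAT had 1107 for TMEM184B (next 730), and P12-ICHIKAWA 1323 for E2F7 (next 1868). PEER had 3894 for BRK1 (next 4558), 104 for LINC01120 (next 15.4) and 202 for TM6SF1 (next 396). LOUCY had 332 for RAPGEF5 (next 36.6).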

How the results depend on the processing

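The count of 20 higher genes became 4 with the ACTB ratio as a covariate and 4 with the CD1E level as a continuous predictor, and ran from 3 to 48 with 1 line left out. The count of 35 lower genes became 22 without the filter on low genes, 2 with the ACTB ratio, 8 with the continuous predictor, and 2 to 112 with 1 line left out. The 2 genes with a gap of at least 1 log2 unit became 28 of the 13327 tested at any gap, 1 with pseudocount 64, and 2 to 5 with 1 line left out. The other settings kept these counts within 1.5 times. The cause of these changes was not tested, beyond the fewer lines or wider gap that the setting itself sets. The ACTB ratio difference kept an unadjusted exact permutation p under 0.05 in each setting run. The adjustment over 3 measures was not repeated in those settings. The difference of LRPAP1 turned to 0.23 with its most variable probe set and to 0.14 with the mean of its probe sets. Over all settings, the 55 genes that passed gave 927 values on the same side of the threshold, 602 past it no longer and 2 of opposite sign. Of the other named genes, 1551 values did not change side and 33 passed. The labels put all lines in 1 group with no replicate numbers. No paired analysis was possible because the lines carry no such numbers.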

Other observations

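Over 13327 genes, the CD1E-high lines resembled each other more than the CD1E-low lines did. The median Pearson r was 0.902 over 36 pairs of CD1E-high lines, 0.852 over 21 pairs of CD1E-low lines and 0.860 over 63 pairs across the sides. These values are across genes, which are not independent replicates, and pairs share lines. The most similar line lay on the same side for 8 of 9 CD1E-high and 4 of 7 CD1E-low lines. CCRF-CEM and PEER, on opposite sides, had an r of 0.929 and were each other's most similar line. MOLT-16 was most like CCRF-CEM (0.904) and SUP-T11 most like PF-382 (0.859).

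Genes of the mature T cell, the receptor complex and cell homing held no gene that passed. Of 14 tested genes of the T-cell receptor complex 0 passed (limma), with an unadjusted p under 0.05 for 3 in the higher and 1 in the lower direction. Of the differences 12 were positive, and the median was 0.66. Of 17 tested genes of selected and mature T cells 0 passed, with an unadjusted p under 0.05 for 1 in the higher and 4 in the lower direction. The largest difference was that of CD52, a small surface glycoprotein, at 87.8 to 1618 in the CD1E-high lines and 87.1 to 10816 in the CD1E-low lines (difference -3.05 ± 0.88, limma adjusted p = 0.131). The 15 tested adhesion and homing receptors held 2 higher and 2 lower genes at an unadjusted limma p under 0.05. Their differences went both ways, 6 positive and 9 negative, with a median of -0.31. ITGB7, the integrin beta chain of gut homing, was at 5.29 to 107 against 23.7 to 1206 (difference -2.68 ± 0.69, limma adjusted p = 0.0962). CXCR4, the receptor for the chemokine CXCL12, was at 4668 to 10348 against 570.4 to 7219 (difference 1.13 ± 0.43, limma adjusted p = 0.241). Of 13 tested genes of HLA class I presentation, 16 of the interleukin 7, JAK and STAT5 group and 7 GIMAP genes, 0 passed, with median differences of -0.21, -0.54 and -0.31. At an unadjusted p under 0.05 there were 1, 4 and 0 of them. Over all genes tested, 5.8% were higher and 8.94% were lower at that threshold.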
